A study of Homo sapiens with 6 samples.

Results

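The mitochondrial ribosomal protein genes, whose symbols begin with MRPL for the large and MRPS for the small subunit followed by a number, were followed across CD24+ and CD24− cells of 3 myeloma lines. Among the probe sets annotated to 1 gene only, the brightest by its mean over the 6 arrays stood for each gene. The rule found 77 symbols of the 19775 genes with such a probe set. Of these, 75 were protein-coding, 48 named MRPL and 27 named MRPS, and all 75 were bright enough to be tested among 12078 genes. The other 2 were the antisense transcript MRPL20-AS1 and the pseudogene MRPL45P2, which are kept apart. RefSeq lists 77 protein-coding genes under the rule. MRPL53 and MRPS24 were measured only by probe sets shared with another gene and were not analysed here. The rule picks genes by symbol alone, but it was chosen with earlier results of these data known.

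OPM2, ARP1 and OCI-MY5 are established human lines of multiple myeloma, a malignancy of plasma cells. Cells of each line, all kept in RPMI-1640 medium with serum and antibiotics, were separated by flow cytometry on CD24, a glycoprotein anchored at the cell surface. RNA of each CD24+ fraction, described by the submitters as a cancer stem cell population, and of each CD24− fraction was hybridised to 1 Affymetrix Human Genome U133 Plus 2.0 array. The CD24+ and CD24− groups therefore held 3 arrays each, 1 per line, and each line held 2 arrays, 1 per fraction. No label says that the arrays came from repeated cultures, so p-values measure only the spread between these samples, which may be partly technical. Comparisons between lines took the 2 fractions of a line as its replicates and describe these 3 lines. All 9 plasma cell markers were bright enough to be tested, with a summed intensity of 110190 to 261501 per array.

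Mitochondria keep a ribosome of their own, which makes the few proteins encoded by mitochondrial DNA, all of them core subunits of the respiratory chain and the ATP synthase. Its RNA comes from mitochondrial DNA, but every one of its proteins is encoded in the nucleus, made in the cytosol and imported. The large subunit forms peptide bonds and passes the growing chain through an exit tunnel next to the inner membrane, while the small subunit reads the messenger RNA. Some members have a counterpart in bacterial ribosomes and others belong to mitochondria alone.

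The windows below run from 250 bases before to 50 bases after the transcription start of 5 members that passed the test between at least 1 pair of lines, chosen after their values were seen. They are taken from the RefSeq promoters of GRCh38.p14, written 5′ to 3′ on the gene's strand, with motif matches in capitals. MRPS6 lies at chr21:34073328-34073627 on the plus strand, MRPL41 at chr9:137551629-137551928 on the plus strand, and MRPL17 at chr11:6683291-6683590 on the minus strand. MRPL47 lies at chr3:179604589-179604888 on the minus strand and MRPL22 at chr5:154940823-154941122 on the plus strand. The capitals mark the NRF1 string at base −81 in MRPL17, the ETS string at base −39 in MRPL47, and in MRPL22 the E-box at base −176 and the YY1 string at base 36, counted from the start.
MRPS6: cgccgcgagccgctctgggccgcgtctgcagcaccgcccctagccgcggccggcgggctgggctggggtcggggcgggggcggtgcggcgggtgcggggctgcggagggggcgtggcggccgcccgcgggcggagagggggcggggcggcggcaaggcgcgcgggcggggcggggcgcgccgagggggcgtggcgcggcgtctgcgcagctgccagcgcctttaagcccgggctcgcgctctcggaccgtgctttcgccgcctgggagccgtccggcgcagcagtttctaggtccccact
MRPL41: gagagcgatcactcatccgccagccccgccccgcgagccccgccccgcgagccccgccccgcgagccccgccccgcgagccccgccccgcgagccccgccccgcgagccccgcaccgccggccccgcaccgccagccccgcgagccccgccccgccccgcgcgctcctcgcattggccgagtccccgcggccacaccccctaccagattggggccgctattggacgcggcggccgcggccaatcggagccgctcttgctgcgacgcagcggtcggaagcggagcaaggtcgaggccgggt
MRPL17: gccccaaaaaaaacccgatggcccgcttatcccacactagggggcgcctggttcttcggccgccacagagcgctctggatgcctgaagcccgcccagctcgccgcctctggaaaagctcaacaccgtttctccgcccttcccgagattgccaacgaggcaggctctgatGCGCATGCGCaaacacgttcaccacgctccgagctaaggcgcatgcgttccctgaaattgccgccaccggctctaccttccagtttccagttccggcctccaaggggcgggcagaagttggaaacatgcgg
MRPL47: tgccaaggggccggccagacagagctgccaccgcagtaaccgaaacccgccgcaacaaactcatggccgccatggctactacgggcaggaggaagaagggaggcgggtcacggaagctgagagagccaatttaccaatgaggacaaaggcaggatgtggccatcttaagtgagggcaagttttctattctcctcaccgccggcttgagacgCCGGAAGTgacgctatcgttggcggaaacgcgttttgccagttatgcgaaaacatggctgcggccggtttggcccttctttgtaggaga
MRPL22: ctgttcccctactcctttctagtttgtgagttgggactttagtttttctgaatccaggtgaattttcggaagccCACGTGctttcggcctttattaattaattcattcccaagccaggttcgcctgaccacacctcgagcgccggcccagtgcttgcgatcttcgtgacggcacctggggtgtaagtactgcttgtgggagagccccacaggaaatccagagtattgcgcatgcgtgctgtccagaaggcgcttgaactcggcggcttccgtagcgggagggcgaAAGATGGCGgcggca

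A window was in the table for 67 of the 75 members. Exact strings for 4 factors known to regulate nuclear genes of mitochondria were searched on both strands, and none of the 4 strings contains another. The YY1 string AAGATGGCG was in 12 of the 67 members' windows, a share of 17.9%, against 2.74% of all 15843 promoters. The ETS string CCGGAAGT, bound by GABP, was in 10 members' windows or 14.9%, against 6.19% of all promoters. The NRF1 string, GCGCA and GCGC with any base between them, was in 8 or 11.9%, against 8.58%, and the E-box CACGTG in 6 or 8.96%, against 8.88%. The windows of MRPS6 and MRPL41 held none of the 4 strings, which says nothing about the factors. Median GC content was 60.3% in the members' windows and 62.7% in all promoters. The start of 18 of the 67 members, or 26.9%, lay within 1000 bases of a gene that runs the opposite way, against 10.3% of all promoters. MRPL46 and MRPS11, 1 gene of each subunit, face each other in this way. MRPL49 faces FAU, which encodes a cytosolic ribosomal protein, MRPS12 faces SARS2, the mitochondrial serine tRNA ligase, and MRPL32 faces PSMA2, a proteasome subunit.

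Values are MAS5 intensities on a linear scale, and differences are on the log2(intensity + 16) scale, where changes of dim genes come out too small. The members' intensities ran from 416 for MRPL2 to 21846 for MRPL47, and an intensity depends on its probes as well as on the RNA, so levels are not compared between members. The median of the members' means was 3907, with 3927 for large and 3760 for small subunit genes, and the median member stood at percentile 86.2 of brightness among the tested genes. Of the 75 members, 38 had 1 probe set and 37 had more than 1. Because bright genes can behave unlike dim ones, the main counts are set beside all tested genes and, where computed, beside genes of equal brightness, the 5964 other tested genes in the same twentieths of mean brightness, weighted by the members' numbers. Array quality differed. The median intensity of all probe sets was 135 on the OPM2 CD24+ array and 69.0 to 84.2 on the 5 others, and the spike-in controls stood at 37362 against 6175 to 7399. The ratio of 3′ to 5′ signal of ACTB, which grows with RNA breakdown, was 27.1 and 7.54 for OPM2 CD24+ and CD24−, 2.63 and 2.47 for ARP1, and 9.36 and 23.2 for OCI-MY5. The part of these differences in the results below was not tested. GNLY, a granule protein of cytotoxic lymphocytes, read 5215 and 6859 in ARP1 against at most 119 in the other lines, while CD3D, CD3E and CD3G read at most 128.5 on any array. HBB, a haemoglobin chain, read 2298 and 1792 in OPM2 against at most 225 elsewhere. The summed B cell, myeloid and stromal markers stayed between 148 and 609 per array, and the part of any of these markers in the results was not tested.

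The cell line accounted for most of the variance of the members. Per gene, the median share of the variance lying between lines was 81.2% for the 75 members, with 83.1% for the large and 79.9% for the small subunit, against 77.5% over all tested genes. The median share lying between the CD24 fractions was 4.85%, against 4.76%. MRPL47 and MRPL43 had 99.3% of their variance between lines, while MRPL15, a large subunit protein, had 0.0040% there. At the adjusted threshold of 0.05, limma's F test found a difference among lines for 14 of 75 members, 11 large and 3 small, against 30.9% of genes of equal brightness and 28.5% of all tested genes.

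OCI-MY5 held the highest mean of the 3 lines for 50 of the 75 members, a share of 66.7%, against 37.8% of genes of equal brightness and 29.0% of all tested genes. OPM2 was highest for 16 members, where 37.0% of genes of equal brightness and 38.6% of all tested genes were, and ARP1 for 9, where 25.1% and 32.4% were. OPM2 was lowest for 38, ARP1 for 30 and OCI-MY5 for 7. Both OCI-MY5 arrays stood above the 4 others for 34 members or 45.3%, against 25.2% of genes of equal brightness and 16.2% of all tested genes, and below them for 2, against 14.1% and 14.7%. Both OPM2 arrays stood above the 4 others for 5 members, against 25.5% of genes of equal brightness and 21.3% of all tested genes. They stood below the 4 others for 24 members or 32%, against 28.5% and 25.3%. Both ARP1 arrays stood above the 4 others for 2 members, against 14.2% of genes of equal brightness and 17.2% of all tested genes. They stood below for 18 members or 24%, near the 21.5% of genes of equal brightness and above the 13.6% of all tested genes. The order OCI-MY5 over ARP1 over OPM2 held for 31 members or 41.3%, against 19.2% of all tested genes.

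In both subunits OCI-MY5 was the line most often highest. It was highest for 30 of 48 large and 20 of 27 small subunit genes, and both of its arrays stood above the 4 others for 21 large and 13 small subunit genes. Among cytosolic ribosomal proteins, OCI-MY5 was highest for 12 of 61 and both of its arrays stood above the rest for 4. Complex I subunits, the largest respiratory complex, had OCI-MY5 highest for 9 of 32 and both arrays above for 6. Mitochondrial translation factors had it highest for 17 of 34 and assembly factors of the mitochondrial ribosome for 12 of 29, with both arrays above for 10 and 7. Regulators of mitochondrial gene expression had it highest for 9 of 18 and both arrays above for the same number, or 50%, a larger share than the members' 45.3%. Of the 4 tested mitochondrial ribosomal proteins with other names, OCI-MY5 was highest for 3, with both arrays above for 2. No test of these differences between lists was made.

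**Figure D1:**
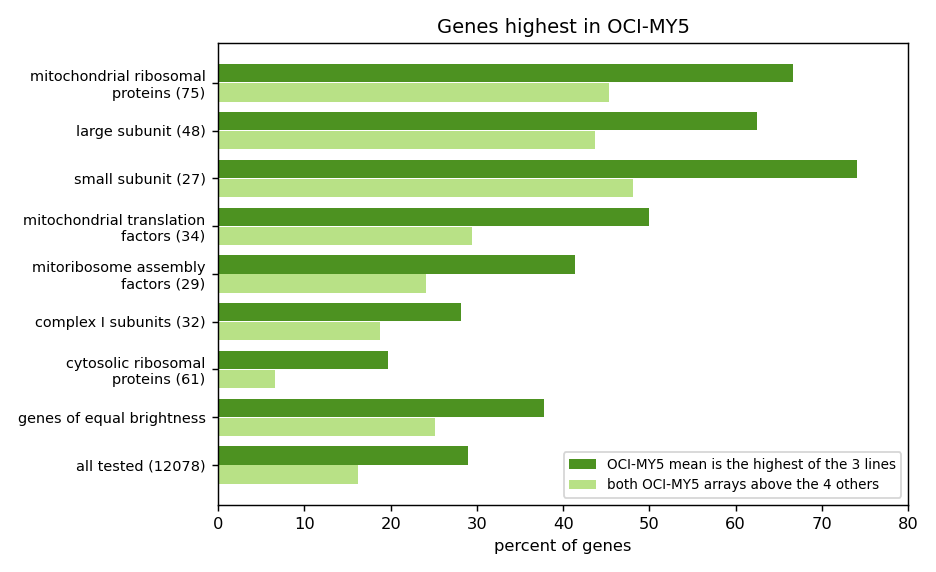
Percent of genes per list for which OCI-MY5 had the highest mean of the 3 lines (dark bars) or both OCI-MY5 arrays stood above the 4 others (light bars), with the number of tested genes in brackets. The members reach 66.7% and 45.3%, against 29.0% and 16.2% of all tested genes.

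In OPM2 against OCI-MY5, members of both subunits were lower. Of the 75, 18 passed the adjusted threshold of 0.05 in limma, or 24%, against 26.1% of all tested genes, a share near the background. All 18 were lower in OPM2 by their chosen probe sets, where 14.7% of all tested genes and 16.1% of genes of equal brightness were called lower. None was higher, where 11.4% and 11.9% were called higher. In some alternatives of the processing, given at the end, 1 or 2 members were called higher. They were 12 of 48 large and 6 of 27 small subunit genes. Called or not, 57 of the 75 members were lower in OPM2, against 54.7% of genes of equal brightness. The median difference was −0.36, with −0.37 for the large and −0.32 for the small subunit, against −0.08 for genes of equal brightness and −0.00 for all tested genes, and taken gene by gene against equal brightness it was −0.31. The count of calls moved with the array left out, among the members and among all tested genes. The members' median stayed between −0.48 and −0.24.

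**Figure D2:**
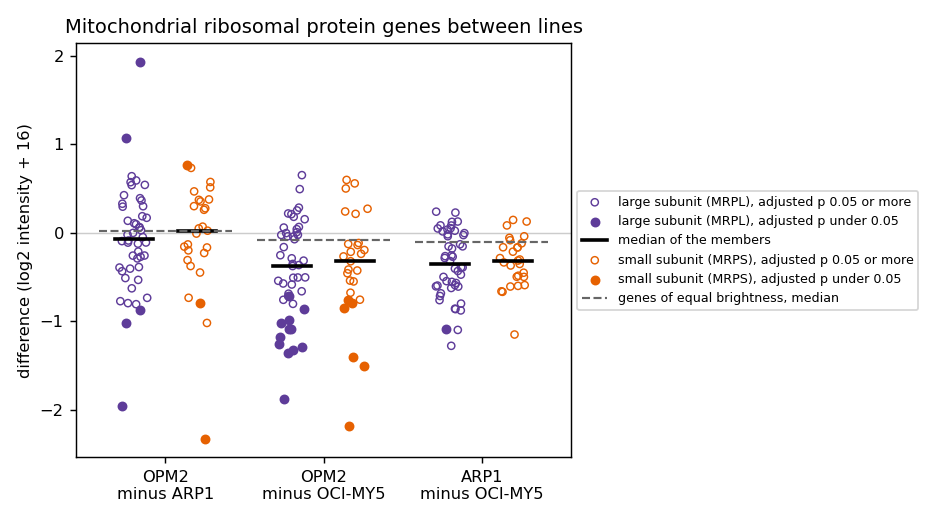
Difference between lines for each of the 48 large (purple) and 27 small (orange) subunit genes, on the log2(intensity + 16) scale. Filled points passed limma's adjusted threshold, black bars are the members' medians, and dashed lines are the medians of genes of equal brightness. For OPM2 minus OCI-MY5 all 18 filled points lie below 0.

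MRPS6, a protein of the small subunit platform, had the widest difference of any member. Its intensity was 1021 and 1707 in OPM2 CD24+ and CD24− cells, against 6855 and 6490 in ARP1 and 5927 and 6126 in OCI-MY5. Both OPM2 arrays lay far below the 4 others, and the ARP1 and OCI-MY5 arrays lay close together. The difference was −2.32 ± 0.28 (SE) to ARP1 (limma adjusted p = 0.0062) and −2.18 ± 0.28 to OCI-MY5 (limma adjusted p = 0.0068), and MRPS6 was 4.52 times lower in OPM2 than in OCI-MY5. Its partner on the platform in bacteria, S18, has MRPS18C as its closest human counterpart, which read 5812 and 4815 in OPM2, 3833 and 3805 in ARP1, and 5716 and 5925 in OCI-MY5. MRPS18C passed in no pair of lines, and its OPM2 arrays did not lie below the rest.

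MRPL41, a large subunit protein without a bacterial counterpart that has been reported to bind the survival protein BCL2, followed the same pattern. Its intensity was 1547 and 3082 in OPM2 CD24+ and CD24− cells, against 8655 and 8385 in ARP1 and 8032 and 8029 in OCI-MY5. The OPM2 arrays were the 2 lowest, with the CD24+ array lower than the CD24− array. The difference was −1.96 ± 0.35 to ARP1 (limma adjusted p = 0.017) and −1.87 ± 0.35 to OCI-MY5 (limma adjusted p = 0.018). A second bright probe set of MRPL41 gave differences of −1.85 and −1.63.

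The exit tunnel of the large subunit held members with opposite patterns. MRPL47, the counterpart of bacterial L29, had an intensity of 8277 and 8400 in OPM2, 10604 and 9536 in ARP1, and 20929 and 21846 in OCI-MY5. OCI-MY5 stood apart from both other lines, and the fractions of each line lay close together. The difference was −1.36 ± 0.17 for OPM2 minus OCI-MY5 (limma adjusted p = 0.0063) and −1.09 ± 0.17 for ARP1 minus OCI-MY5 (limma adjusted p = 0.048). A second probe set of MRPL47 past the brightness limit, far dimmer at 75.7 to 154, gave only −0.21 and −0.05 in these pairs. MRPL22, whose bacterial counterpart lines the tunnel, read 3353 and 3098 in OPM2, 6245 and 5553 in ARP1, and 7486 and 7966 in OCI-MY5. OPM2 was again the lowest line, with differences of −0.87 ± 0.17 against ARP1 (limma adjusted p = 0.024) and −1.26 ± 0.17 against OCI-MY5 (limma adjusted p = 0.0085). MRPL32, which in yeast and mice is trimmed by a protease of the inner membrane before it joins the ribosome, read 5290 and 9367 in OPM2, 12337 and 11124 in ARP1, and 16971 and 18326 in OCI-MY5. Its difference was −1.32 ± 0.31 between OPM2 and OCI-MY5 (limma adjusted p = 0.034), and the OPM2 arrays lay below the 4 others although they differed from each other.

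MRPL17 ran the other way. Its intensity was 4830 and 3435 in OPM2, against 1234 and 909 in ARP1 and 2616 and 2558 in OCI-MY5. Every array of OPM2 lay above every other array, and both ARP1 arrays lay below the rest. MRPL17 was higher in OPM2 than in ARP1 by 1.93 ± 0.26, or 3.80-fold (limma adjusted p = 0.0084). The differences of 0.65 between OPM2 and OCI-MY5 and −1.28 between ARP1 and OCI-MY5 did not pass (limma adjusted p = 0.13 and 0.072). MRPL45, which tethers the ribosome to the inner membrane, read 1142 and 1089 in OPM2, 1448 and 1288 in ARP1, and 1366 and 1414 in OCI-MY5, and passed in no pair.

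The stalk, which recruits translation factors, has 3 members that did not move as one. MRPL10, its base, read 1662 and 2034 in OPM2, 3763 and 3722 in ARP1, and 4087 and 4234 in OCI-MY5. It was lower in OPM2, with differences of −1.02 ± 0.18 against ARP1 (limma adjusted p = 0.018) and −1.17 ± 0.18 against OCI-MY5 (limma adjusted p = 0.012). MRPL12, the factor-binding arm, which has also been reported to bind mitochondrial RNA polymerase, read 3292 and 4898 in OPM2, 4048 and 3476 in ARP1, and 4698 and 3157 in OCI-MY5. All 3 lines overlapped for MRPL12, and its difference between OPM2 and OCI-MY5 was 0.06. MRPL11, next to the stalk, read 2099 and 3655 in OPM2, 2474 and 2386 in ARP1, and 4152 and 4096 in OCI-MY5. It was highest on both OCI-MY5 arrays, but no pair of lines passed.

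Further small subunit members were called between OPM2 and OCI-MY5. MRPS10, a head protein, read 1534 and 2804 in OPM2, 4133 and 4299 in ARP1, and 5208 and 6684 in OCI-MY5, a difference of −1.50 ± 0.33 between OPM2 and OCI-MY5 (limma adjusted p = 0.030). Its other bright probe sets gave −0.11 and −1.18, so the size depends on the probe set. MRPS28 read 1650 and 2943 in OPM2, 3783 and 3566 in ARP1, and 5437 and 6263 in OCI-MY5, a difference of −1.40 ± 0.31 (limma adjusted p = 0.030). For both genes the OPM2 arrays were the lowest and the OCI-MY5 arrays the highest. MRPS2, which read 1459 and 1795 in OPM2, 3122 and 2538 in ARP1, and 3062 and 2798 in OCI-MY5, was lower in OPM2, with differences of −0.79 ± 0.21 against ARP1 (limma adjusted p = 0.049) and −0.85 ± 0.21 against OCI-MY5 (limma adjusted p = 0.040). Of the rest of the 18, MRPS22 and MRPS35 and the large subunit members MRPL13, MRPL14, MRPL36, MRPL39, MRPL43, MRPL46 and MRPL52 had differences of −1.29 to −0.71 between OPM2 and OCI-MY5. MRPS22, whose loss in people causes a failure of oxidative phosphorylation, was the only one of these with more than 1 further bright probe set in the same direction, at −0.87, −0.87 and −0.43.

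MRPL43 and MRPS14 have probe sets that disagree. The chosen probe set of MRPL43, a large subunit protein, read 1121 and 1069 in OPM2, 1217 and 1146 in ARP1, and 2236 and 2127 in OCI-MY5, a difference of −0.98 ± 0.16 between OPM2 and OCI-MY5 (limma adjusted p = 0.014). A further probe set of the gene read 2642 and 3230 in OPM2, 194 and 458 in ARP1, and 493 and 514 in OCI-MY5, the opposite direction at 2.50, and another gave 0.12. No direction is given for MRPL43 as a gene. MRPS14, a head protein, read 7989 and 8731 in OPM2, 5121 and 4664 in ARP1, and 5750 and 5580 in OCI-MY5 by its brightest probe set, higher in OPM2 than in ARP1 by 0.77 ± 0.17 (limma adjusted p = 0.031). Its other probe set read 229 and 291 in OPM2, 708 and 748 in ARP1, and 508 and 497 in OCI-MY5, a difference of −1.44, and no direction is given for MRPS14 either. Over all members, 36 of 52 further bright probe sets had the sign of the chosen one for OPM2 minus OCI-MY5, and 9 of 11 did among the called members.

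**Figure D3:**
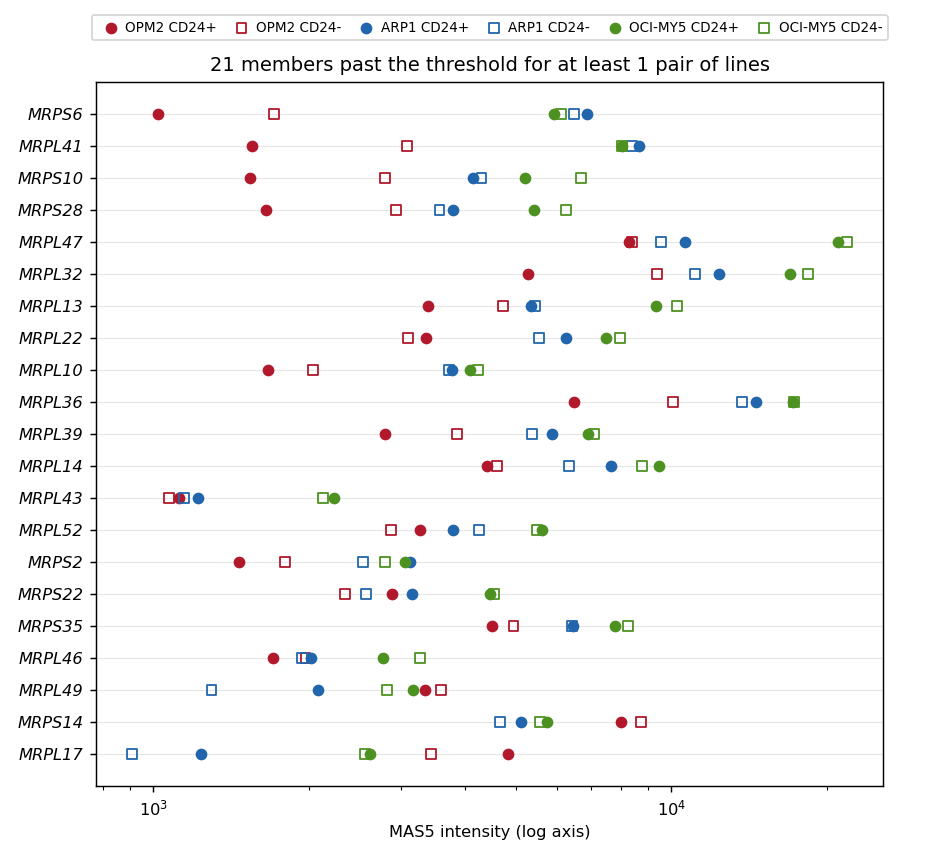
MAS5 intensity (log axis) on each array for the 21 members past limma's adjusted threshold in at least 1 pair of lines, from the most negative to the most positive OPM2 minus OCI-MY5 difference. Red is OPM2, blue ARP1 and green OCI-MY5, with filled circles for CD24+ and open squares for CD24−. MRPS6 and MRPL41 have both OPM2 arrays far left of the others, and MRPL17 has them to the right.

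Between OPM2 and ARP1 the members had no common direction. Of the 75, 8 passed limma's adjusted threshold, or 10.7%, against 25% of all tested genes and 27.4% of genes of equal brightness. By their chosen probe sets 3 were called higher in OPM2, where 13.4% of genes of equal brightness and 10.1% of all tested genes were. They were MRPL17, MRPL49 and MRPS14, whose other probe set gave the opposite sign. MRPS6, MRPL41, MRPL10, MRPL22 and MRPS2 were called lower, where 14.0% and 14.8% were. MRPL49, a large subunit protein of mitochondria alone, read 3339 and 3594 in OPM2, 2075 and 1294 in ARP1, and 3170 and 2821 in OCI-MY5, a difference of 1.07 ± 0.27 to ARP1 (limma adjusted p = 0.043). FAU, which faces it, differed by 0.61 in the same pair and did not pass (limma adjusted p = 0.11). The median difference of the members was −0.02, with −0.07 for the large and 0.02 for the small subunit, against 0.02 for genes of equal brightness. With 1 array left out, the members' median ran from −0.15 to 0.04, and the count of calls moved among the members and among all tested genes.

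In ARP1 against OCI-MY5, 61 of the 75 members were lower in ARP1, against 58.8% of genes of equal brightness, and the median difference was −0.32. It was −0.35 for the large and −0.31 for the small subunit, against −0.10 for genes of equal brightness and 0.04 for all tested genes. Only MRPL47 passed limma's adjusted threshold, 1 of 75 or 1.33%, against 2.62% of all tested genes, with 0.836% of all tested genes called lower and 1.78% higher. The widest uncalled differences were those of MRPL17, at −1.28, and of MRPS16, a body protein, at −1.15 (limma adjusted p = 0.068). MRPS16 read 1674 and 1271 in ARP1 and 3432 and 3078 in OCI-MY5. A further bright probe set of MRPS16 gave 0.71, the opposite direction, so no direction is given for it as a gene. Of 52 further bright probe sets of the members, 33 had the sign of the chosen one in this pair and 31 for OPM2 minus ARP1. The lines share arrays between these comparisons, so the OCI-MY5 values enter both this one and OPM2 minus OCI-MY5. With 1 array left out, the members' median stayed between −0.35 and −0.28, while the count of calls moved among the members and among all tested genes.

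Members were also grouped by origin, and no test between the origins was made. For OPM2 minus OCI-MY5, the 44 members with a bacterial counterpart had a median of −0.39 and the 28 of mitochondria alone had −0.36. In each of these groups 25% were called lower, 11 and 7 genes, against 14.7% of all tested genes. The medians were 0.04 and −0.15 for OPM2 minus ARP1, and −0.39 and −0.24 for ARP1 minus OCI-MY5. Among structural sites, the median ran from −0.21 for the 5 platform proteins to −0.57 for the 3 stalk proteins, with −0.31 for 7 tunnel exit, −0.50 for 7 central protuberance, −0.46 for 7 head and −0.34 for 6 body proteins. By promoter string, the median was −0.73 for the 12 members with the YY1 string, −0.56 for the 6 with the E-box, −0.34 for the 8 with the NRF1 string and −0.18 for the 10 with the ETS string. The numbers called lower were 6, 2, 2 and 3, where 24% of all 75 members and 14.7% of all tested genes were. These groups are small, share genes and are described without a test. YY1 itself, a zinc finger factor, read 19511 and 16273 in OPM2, 8425 and 10960 in ARP1, and 10289 and 10901 in OCI-MY5. It was higher in OPM2 than in ARP1 by 0.89 (limma adjusted p = 0.039). The medians by site and by string belong to OPM2 minus OCI-MY5, and in that pair YY1 did not pass.

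The median large subunit level minus the median small subunit level was compared across arrays. It was 0.19 and 0.15 on the OPM2 CD24+ and CD24− arrays, 0.25 and 0.29 for ARP1, and 0.07 and −0.01 for OCI-MY5, on the log2 scale. Since the medians come from different probe sets, their level cannot be read, and the order of the lines turned with the probe sets chosen. The mean of all probe sets gave 0.72 and 0.61 for OPM2, 0.22 and 0.23 for ARP1, and 0.82 and 0.79 for OCI-MY5. Without x_at and s_at probe sets it was 0.29 and 0.29 for OPM2, 0.07 and 0.17 for ARP1, and 0.08 and 0.15 for OCI-MY5. MRPS30 and MRPS18A, named for the small subunit, encode proteins found in the large subunit. MRPS30 read 3101 and 5157 in OPM2, 4553 and 4418 in ARP1, and 6990 and 6532 in OCI-MY5, and MRPS18A read 665 and 1292 in OPM2, 1178 and 1237 in ARP1, and 1605 and 1143 in OCI-MY5. Neither passed in any pair of lines by its chosen probe set. Further bright probe sets of MRPS30 gave −1.30 and −1.06 for OPM2 minus OCI-MY5, against −0.75 for the chosen one. They gave −1.74 and −0.69 for OPM2 minus ARP1, against −0.16. That of MRPS18A gave 0.35 for OPM2 minus ARP1, against −0.37 for the chosen one, so no direction is given for MRPS18A in that pair. Counting both genes with the large subunit moved the large subunit's median for OPM2 minus OCI-MY5 to −0.44. MRPS18B, the other S18-like protein, differed by −0.11 in that pair. MRPL58, a peptidyl-tRNA hydrolase that is built into the large subunit and releases stalled chains, read 2490 and 2156 in OPM2, 3232 and 2372 in ARP1, and 3474 and 3873 in OCI-MY5, and passed in no pair.

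Genes around the mitochondrial ribosome gave both directions in OPM2 against OCI-MY5, where 14.7% of all tested genes were called lower and 11.4% higher. Of 29 assembly factors, 6 or 20.7% were called lower and 0 higher. MALSU1, which binds MRPL14 on the large subunit and keeps the subunits apart during assembly, read 6008 and 5648 in OPM2, 10369 and 9572 in ARP1, and 12349 and 13006 in OCI-MY5, a difference of −1.12 ± 0.17 (limma adjusted p = 0.010). MRPL14 itself read 4408 and 4604 in OPM2, 7636 and 6344 in ARP1, and 9478 and 8755 in OCI-MY5, a difference of −1.01 ± 0.18 (limma adjusted p = 0.018). The OPM2 arrays were the lowest for both genes. Further assembly factors were lower too, among them LETM1, an ion exchanger of the inner membrane, at −1.46, RCC1L at −1.26 and MTERF3 at −1.04. Of 34 translation factors, 6 or 17.6% were lower, led by WARS2, the mitochondrial tryptophan tRNA ligase, at −2.31, and QRSL1, a subunit of the enzyme that forms glutaminyl-tRNA, at −1.79. The 3 called higher were LRPPRC, which stabilises mitochondrial messenger RNA, at 0.84, MTRFR, a rescue factor, at 0.81, and RARS2, the arginine tRNA ligase, at 0.78. Of 18 regulators, 5 or 27.8% were lower, among them MTERF1, a transcription terminator, at −2.12 and TEFM, a transcription elongation factor, at −1.72. The coactivator PPARGC1A was higher, at 1.88, with intensities of 202 and 357 in OPM2, 57.4 and 101 in ARP1, and 74.2 and 50.9 in OCI-MY5. Its relative PPARGC1B was lower, at −1.33. Of the 4 tested mitochondrial ribosomal proteins with other names, 0 passed in this pair, where 3 were lower. Cytosolic ribosomal proteins had a median of 0.06 with 4 of 61 or 6.56% called lower, and complex I subunits 0.12 with 3 of 32 or 9.38% lower and 1 higher.

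In OPM2 against ARP1, the called companion genes also ran both ways. RCC1L, an assembly factor, was lower at −1.81, QRSL1 at −1.46, YARS2, the tyrosine tRNA ligase, at −1.22 and MTERF1 at −1.72. LRPPRC was higher at 1.13, PPARGC1A at 1.62 and GABPB1, a subunit of the factor GABP, at 1.07. RARS2, the arginine tRNA ligase, also passed as higher. CHCHD1, a small subunit protein under another name, read 9795 and 11629 in OPM2, 5974 and 6524 in ARP1, and 13586 and 13906 in OCI-MY5, and was higher in OPM2 than in ARP1 by 0.77 (limma adjusted p = 0.036). In ARP1 against OCI-MY5, TWNK, the mitochondrial DNA helicase, was lower at −1.21 (limma adjusted p = 0.045).

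Members were also set beside the 10 nearest tested genes on their chromosome, 5 on each side in the GRCh38.p14 order. For OPM2 minus OCI-MY5 the member's difference and the median of its neighbours correlated with Pearson's r = 0.45 and Spearman's rho = 0.45 over 75 members, a description across genes that share the same 4 arrays and are not independent. Over 12068 tested genes the same Pearson's r was 0.25. All 10 neighbours of MRPL22 were lower in OPM2, with a median of −1.04, and so were 9 of 10 neighbours of MRPL47, with a median of −0.99. MRPL3, a protein near the site of peptide bond formation, had 10 of 10 neighbours lower, with a median of −0.72, while its own difference was 0.01. MRPS6 and MRPL41 stood apart from their neighbours, whose medians were −0.19 and −0.17. The copy number of these regions was not measured here.

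**Figure D4:**
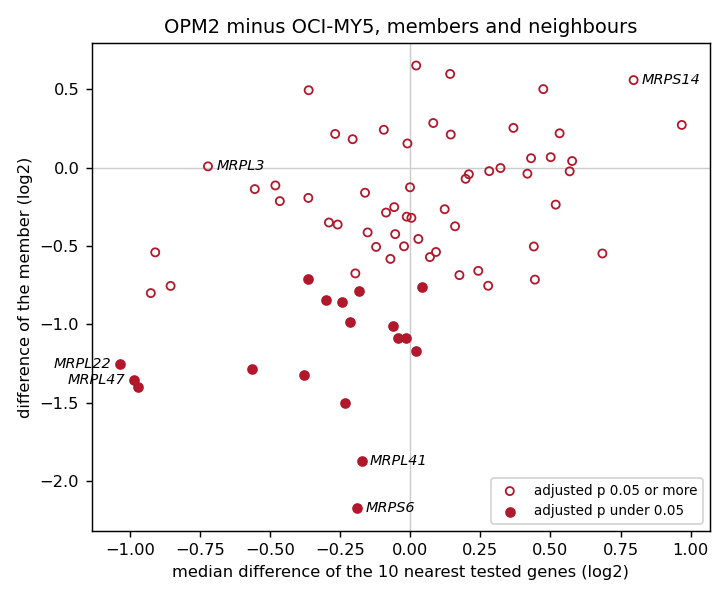
OPM2 minus OCI-MY5 difference of each of the 75 members (vertical axis, log2) against the median difference of its 10 nearest tested genes (horizontal axis, log2), with filled points past limma's adjusted threshold. MRPL22 and MRPL47 lie low with their neighbours at −1.04 and −0.99, while MRPS6 and MRPL41 lie low with neighbours near 0.

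The study's own question was how CD24+ cells differ from CD24− cells. No member passed in CD24+ against CD24− cells, 0 of 75, and limma called 0% of the 12078 tested genes. At an unadjusted p under 0.05, limma found 0 members and 149 of all tested genes. The lowest unadjusted p of a member was 0.17, for MRPL38. The median difference of the members was −0.07, with −0.03 for the large and −0.08 for the small subunit, against −0.04 for genes of equal brightness. Cytosolic ribosomal proteins had a median of 0.29, with 57 of 61 higher in CD24+ cells, against 6643 of all 12078 tested genes, and 0 called. Centring each array on its median moved the median of all tested genes from 0.03 to −0.30. The cytosolic list was not recomputed after centring. Centring shifts all genes of an array alike, so the sign of the cytosolic median depends on the scaling used. Its place above the median of all tested genes cannot move with centring. On simulated data made from these arrays, the same test recovered 0% of 200 genes changed 4-fold. The number of arrays limits the precision, and this fit held no term for the line, so differences between lines counted as spread. With the line as a block, limma found 0 members and 560 of all tested genes at an unadjusted p under 0.05, and called 0 genes.

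Within lines, the members leaned in different directions. In OPM2, 21 members were higher in CD24+ cells and 54 lower, where 34.9% of genes of equal brightness and 53.8% of all tested genes were higher. The OPM2 median was −0.29, against −0.13 for genes of equal brightness. Scaling moved its size to −0.15 after quantile normalization and −1.06 after centring each array on its median, and the CD24+ array of this line had the deviating median intensity and spike-ins given above. In ARP1, 60 of 75 were higher, against 54.0% of genes of equal brightness and 51.4% of all tested genes, with a median of 0.10, but after centring 34 were higher and the median was −0.02. In OCI-MY5, 33 of 75 were higher, against 45.5% of genes of equal brightness and 54% of all tested genes, with a median of −0.03. Scaling turned that direction, to 40 of 75 higher and a median of 0.01 after quantile normalization, against 18 of 75 and −0.13 after centring. Taken against genes of equal brightness, the median difference of the members between the fractions came to −0.14 for OPM2, to 0.08 for ARP1 and to −0.01 for OCI-MY5. Centring cannot move these values, since it shifts all genes of an array alike. With the mean of all probe sets they were −0.08 for OPM2, 0.03 for ARP1 and 0.01 for OCI-MY5, where the sign turned. Each of these differences rests on 1 array per fraction and has no replicate check.

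**Figure D5:**
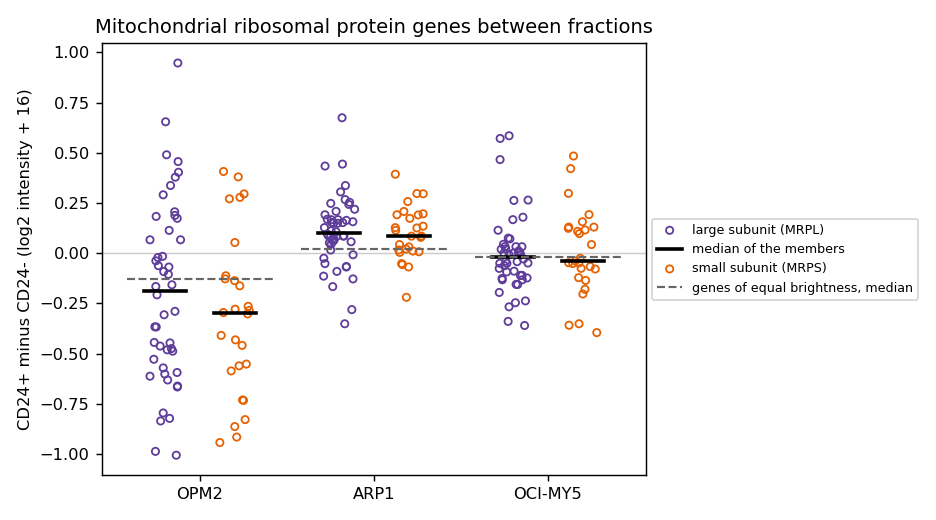
CD24+ minus CD24− difference of each member within OPM2, ARP1 and OCI-MY5 on the log2(intensity + 16) scale, with large subunit genes in purple, small subunit genes in orange, black bars at their medians and dashed lines at the medians of genes of equal brightness. The OPM2 points are spread widest and sit mostly below 0, and the ARP1 points sit mostly above it.

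CD24+ and CD24− cells were at least 2-fold apart for 1 member in OPM2, where 3.35% of genes of equal brightness and 18.2% of all tested genes were. They were so for 0 members in ARP1, where 0.097% and 5.07% were, and for 0 in OCI-MY5, where 0.50% and 5.72% were. These counts lie near the shares at equal brightness. The member was MRPL44, a large subunit protein related to RNase III, with 857 in CD24+ and 1736 in CD24− cells of OPM2. Its other bright probe set read 258 and 333 there, less than 2-fold apart, so the size depends on the probe set. In all 3 lines, 7 members were higher in CD24+ cells, where the background is 16.9%, and 6 were lower, where it is 12.2%. MRPL38 led the higher ones, with 1017 in CD24+ and 641 in CD24− cells of OPM2, 658 and 590 in ARP1, and 700 and 462 in OCI-MY5. Every line gave more signal in CD24+ cells, by 0.15 to 0.65. MRPL51, with 13938 and 10718 in OPM2, 19856 and 15718 in ARP1, and 17826 and 16921 in OCI-MY5, was higher by 0.08 to 0.38, and MRPS11 and MRPS21 of the platform by 0.13 to 0.38 and 0.11 to 0.41, while centring turned the mean differences of MRPL51, MRPS11 and MRPS21 negative. MRPL57 and, by its chosen probe set, MRPL43 were higher by 0.03 to 0.19 and 0.07 to 0.09, and centring turned both negative too. Ranked by the smallest of its 3 differences, MRPL50 led the lower ones, with 1832 in CD24+ and 2789 in CD24− cells of OPM2, 1661 and 2022 in ARP1, and 2474 and 2938 in OCI-MY5, with differences of −0.60 to −0.25. MRPS27, an RNA-binding protein with pentatricopeptide repeats, MRPS10, MRPL3, MRPL13 and MRPL30 were lower in all 3 lines as well. None of these differences passed.

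Of the members with the brightest probe sets, MRPL51, MRPL9 and MRPL36 of the large and MRPS12, MRPS15 and MRPS21 of the small subunit, MRPL36 was the only one called in any comparison. It read 6486 and 10056 in OPM2, 14555 and 13704 in ARP1, and 17148 and 17237 in OCI-MY5, a difference of −1.09 ± 0.25 between OPM2 and OCI-MY5 (limma adjusted p = 0.035). Those with the dimmest probe sets, MRPL2, MRPL38, MRPL45, MRPS18A, MRPS25 and MRPS26, passed in none. The antisense transcript MRPL20-AS1 read 499 and 594 in OPM2, 628 and 733 in ARP1, and 927 and 494 in OCI-MY5, and passed in no comparison. The pseudogene MRPL45P2 read 1.01 to 54.3 and was below the brightness limit on its mean, so no difference is given for it.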

How the data were processed

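Expression was measured on 1 array per line and CD24 fraction. Per the labels' protocols, biotinylated cDNA was made from total RNA. The deposited MAS5 intensity values, on a linear scale, were made by the authors with Affymetrix Expression Console 1.1, per the submitters' processing notes. MAS5 scales each array by 1 factor, which leaves differences in the shape of the distribution between arrays. Scan dates and detection calls were not used here.

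Of 54675 probe sets, 62 controls were left out. The platform annotation gave 41091 probe sets 1 gene, 1801 several and 11721 none, with symbols updated through the RefSeq table of GRCh38.p14. Genes whose mean log2 value reached 6.36, the median over probe sets, were tested on log2(intensity + 16) with limma 3.58.1 in R 4.3.3 (lmFit, eBayes, two-sided, Benjamini-Hochberg over all 12078 tested genes). A first fit compared CD24+ with CD24−, and a second fitted 1 mean per line. Tests were tried on simulated data, where the fit by line recovered 0% of genes changed 2-fold and 59% of genes changed 4-fold for OPM2 minus ARP1. In that simulation only 200 of the 12078 genes differed between lines, while limma called 25% of them in the measured data. Its shares are therefore not the power of the reported test.

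Replicate numbers in the titles stand for lines, so they pair the fractions. The correlation of deviations from the means of the CD24 groups was 0.77 within OPM2, 0.70 within ARP1 and 0.71 within OCI-MY5, against −0.58 to 0.15 between lines. The design text states no pairing, so the line as a block was an alternative. Other alternatives were pseudocounts of 1 and 64, other brightness limits, quantile normalization, median centring, other probe set choices, the fraction as a block, and leaving out each array or line.

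The genes and companion lists were chosen with earlier results of these data known. Members were named by a fixed rule, and others were named after their values were seen. The rule took up to 6 members per direction with the same sign in all lines for CD24+ minus CD24−, up to 6 called members per direction for each pair of lines, the brightest and dimmest 3 of each subunit, the stalk, the S18 family, MRPS30, MRPL58, and called members whose probe sets disagree. From each companion list it took up to 4 called genes per pair of lines.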

Additional observations from a re-analysis of the deposited data

Results flagged for a closer look

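The CD24+ minus CD24− differences of the members lay in opposite directions in 2 lines. Their median was −0.29 in OPM2, where 54 of 75 were lower in CD24+ cells, and 0.10 in ARP1, where 60 of 75 were higher. The difference between the lines was not tested, since each line has 1 array per fraction. After centring each array on its median, the ARP1 value was −0.02. Median intensity and spike-in signal were highest on the CD24+ array of OPM2, and their part in this was not tested.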

How the results depend on the processing

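With the cell line as a replicate block, 0 members passed for CD24+ minus CD24− and the median stayed at −0.07, so the pairing changed no call. With the fraction as a block, the calls were 5 for OPM2 minus ARP1, 13 for OPM2 minus OCI-MY5 and 0 for ARP1 minus OCI-MY5. In that order, 19.8%, 21.6% and 0.050% of all tested genes were called. Without a brightness limit the members' calls were 2, 4 and 0 in that order of pairs. Of all genes then tested, 7.23%, 8.29% and 0% were called. With the limit at the 75th percentile 19, 27 and 11 members were called, against 42.2%, 41.7% and 16.8% of all tested genes. After centring 3, 12 and 0 were called, against 15.5%, 18.0% and 1.21%. For ARP1 minus OCI-MY5, 0 were called with a pseudocount of 1, with the mean of all probe sets or without x_at and s_at probe sets. All tested genes stood at 1.39%, 1.27% and 2.03%. With a pseudocount of 64 it was 5, against 6.04%. For OPM2 minus OCI-MY5, 2 members were called higher with the limit at the 75th percentile and 2 after quantile normalization. Of genes of equal brightness, 16.9% and 13.1% were. It was 1 with a pseudocount of 64, with the mean of all probe sets and without x_at and s_at probe sets, against 13.4%, 8.29% and 10.7%. Centring moved the median of all tested genes for CD24+ minus CD24− to −0.30, and the members' medians to −0.40 for CD24+ minus CD24−, −0.29 for OPM2 minus ARP1, −0.76 for OPM2 minus OCI-MY5 and −0.44 for ARP1 minus OCI-MY5. The mean of all probe sets gave −0.20 for ARP1 minus OCI-MY5 and 0.57 for the mean large minus small subunit level, against 0.16. Members highest in OCI-MY5 numbered 45 after quantile normalization, 67 after centring and 45 to 52 with 1 array left out, in alternatives chosen after seeing the data.

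With 1 array or line left out, the calls ran from 0 to 15 for OPM2 minus ARP1, 0 to 27 for OPM2 minus OCI-MY5 and 0 to 7 for ARP1 minus OCI-MY5, and stayed at 0 for CD24+ minus CD24−. For each pair of lines the count of calls among all tested genes moved too, so these ranges are not particular to the members. The members' medians ran from −0.18 to 0.09 for CD24+ minus CD24−, −0.15 to 0.04 for OPM2 minus ARP1, −0.48 to −0.24 for OPM2 minus OCI-MY5 and −0.35 to −0.28 for ARP1 minus OCI-MY5. Some CD24+ minus CD24− differences changed sign. Centring gave −0.26 for MRPL43, −0.067 for MRPL51, −0.22 for MRPL57, −0.092 for MRPS11 and −0.12 for MRPS21. The mean of all probe sets gave −0.21 for MRPL43 and 0.077 for MRPS27, and MRPL43 was −0.51 without x_at and s_at probe sets. Leaving out 1 array gave −0.59 to 0.14 for MRPL13, −0.26 to 7.8e-05 for MRPL30, −0.23 to 0.39 for MRPL43 and −0.77 to 0.10 for MRPS10. Each of these genes kept its sign within all 3 lines by its chosen probe set. The CD24 fit holds no term for the line, and leaving out 1 array takes 1 line out of 1 fraction only. Differences between lines therefore enter these values and the range of the CD24 median above. Between lines, MRPL43 turned to 0.54 and 2.50 for OPM2 minus OCI-MY5, and MRPS14 to −0.33 and −1.44 for OPM2 minus ARP1, with the mean of all probe sets and without x_at and s_at probe sets. In these 2 alternatives other probe sets enter the value of the gene. For the changes between fractions under the alternatives of the processing, those of MRPL43 included, the cause was not tested. The number of arrays limits all of these comparisons.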
